A study of Arabidopsis thaliana with 12 samples.

Results

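Roots of an Arabidopsis thaliana line overexpressing GmVP2, a vacuolar proton pyrophosphatase gene of soybean, were compared with wild-type roots, both grown at low phosphate. The comparison used 6 of the 12 RNA sequencing libraries of the study, namely replicates 1, 2 and 4 of the transgenic line and replicates 2, 3 and 4 of the wild type. It covered the 18910 of 25941 genes whose mean was at least 1 RPKM (reads scaled to gene length and to the library total) over all 12 libraries. The transgenic line, OX3, carried GmVP2 in Columbia-0, and untransformed Columbia-0 was the wild type. Both were raised for 10 days on solid MS medium holding 6.25 µM phosphate. The remaining 6 libraries were 3 of OX3 and 3 of the wild type on medium with 1250 µM phosphate (normal phosphate). They served to place the low phosphate values and also entered the shared estimate of spread behind each p-value. OX3 is 1 line, so effects of the transgene and of its insertion or line history cannot be told apart. The sources used here do not name the promoter that drives GmVP2, and GmVP2 RNA was not measured here, because the table lists Arabidopsis genes. Nothing in the labels ties replicates to separate plants or plates, so each p-value reflects the spread among these libraries, part or all of which may be technical. In bulk roots, fewer cells of a type and less RNA per cell cannot be told apart.

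Vacuolar proton pyrophosphatases split pyrophosphate, a by-product of many biosynthetic reactions, and use the energy to pump protons into the vacuole. The proton gradient drives the transport of ions and solutes across the vacuolar membrane, and the phosphate that is released returns to the cytosol. Roots short of phosphate switch on a starvation programme of phosphate transporters, secreted phosphatases and enzymes that replace phospholipids with galactolipids and sulfolipids, governed in Arabidopsis by PHR1 and restrained by SPX proteins.

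The 6 low phosphate libraries held 17984262 to 20304131 reads. Of the 10 tested root cell type markers, 0 had a limma adjusted p below 0.05 between OX3 and the wild type at low phosphate. Since 0.0423% of all tested genes did, 0 of 10 does not show that the levels were the same. The summed level of the list ran from 4696 to 5348 RPKM in OX3 and from 4662 to 5453 RPKM in the wild type. PYK10, the beta-glucosidase of root endoplasmic reticulum bodies, made up most of that sum, with 4363 to 5020.3 RPKM in OX3 and 4363 to 5133 RPKM in the wild type. The log2 differences of the 10 markers ran from -0.218 to 0.216, with a median of -0.03. Seed storage genes summed to 0.873 to 2.28 RPKM in OX3 and 1.35 to 1.65 RPKM in the wild type, and shoot markers outside photosynthesis to 82.0 to 88.3 and 72.9 to 117 RPKM. Photosynthesis genes, 26 of which were tested, summed to 389.7 to 428 RPKM in OX3 and 352 to 409 RPKM in the wild type.

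The libraries of a genotype were not much closer to each other than to those of the other genotype. The median absolute log2 difference between libraries was 0.088 to 0.122 within OX3, 0.1003 to 0.132 within the wild type and 0.094 to 0.164 between them. Wild-type replicate 2 had a median absolute log2 difference of 0.094, 0.107 and 0.151 from OX3 replicates 1, 2 and 4, and of 0.132 and 0.127 from wild-type replicates 3 and 4. It was closer to OX3 replicates 1 and 2 than to its own group, and farthest from OX3 replicate 4. On the first principal component of the 6 libraries, which held 33.3% of the variance, the OX3 libraries scored 5.03, 6.93 and 16.79 and the wild-type libraries -1.43, -8.31 and -19.01, so the genotypes did not overlap but wild-type replicate 2 lay between. OX3 replicate 4 lay farthest from the wild type. Counts of calls, and calls that changed, are given with and without these libraries.

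At low phosphate 8 genes differed between OX3 and the wild type (limma adjusted p below 0.05), which is 0.0423% of the genes tested. In OX3 3 were higher (0.0159%) and 5 lower (0.0264%), and limma voom on recovered reads called the same 8. With the low phosphate libraries fitted alone, 2 of the 8 passed, AT3G29633 and JAL41, and 0 genes were called lower. In that fit AT1G15290 had a limma adjusted p of 0.0567, and the 5 lower genes had 0.0567 to 0.388. These calls thus depended on fitting the normal phosphate libraries too. The 3 higher genes were AT3G29633, a gene annotated only as a predicted protein, the lectin gene JAL41 and AT1G15290, a tetratricopeptide repeat protein gene. Lower were EXO and EXL1 of the EXORDIUM family of growth-related cell wall proteins, the transcription factor gene MYB77, the actin-related protein gene ARP9 and NAD-ME2, which encodes a mitochondrial malic enzyme. With median-ratio size factors the calls were 3 higher and 2 lower, and without wild-type replicate 2 they numbered 196, 1.04% of the genes tested, of which 112 (0.592%) were higher and 84 (0.444%) lower. There were 3 calls without OX3 replicate 4, 4 without OX3 replicate 1 and 4 without wild-type replicate 4.

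**Figure D1:**
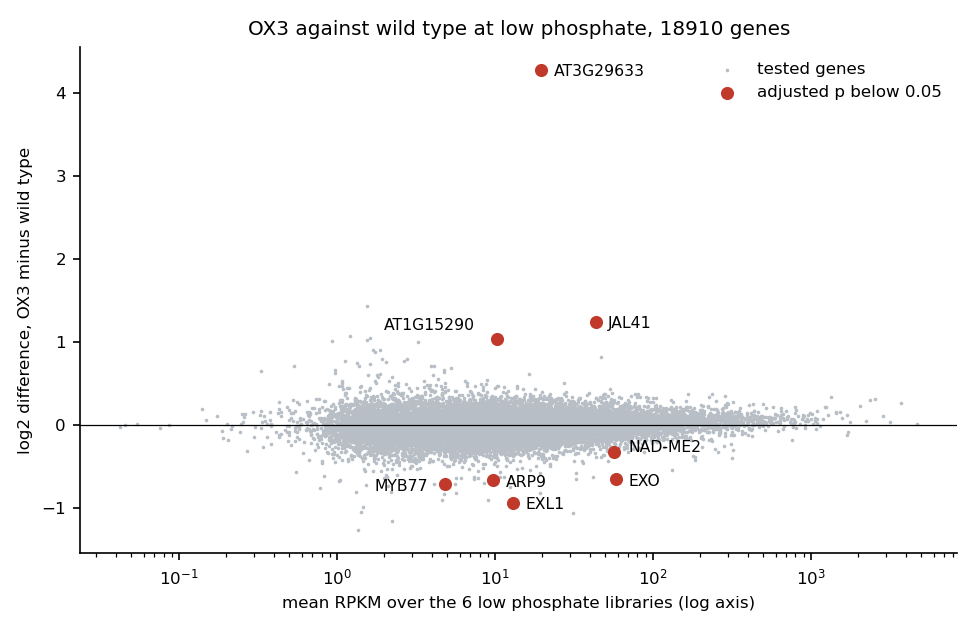
Log2 difference between OX3 and wild type (vertical axis) against mean RPKM over the 6 low phosphate libraries (horizontal log axis), with 1 point per tested gene. The 8 genes in red passed the test, AT3G29633 lies alone at 4.28, and most other genes lie close to 0.

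The differences of most genes were small. The median absolute log2 difference was 0.09, close to the median standard error of 0.09, and 99% of the genes lay within 0.43 of 0. A difference of at least 1 on the log2 scale was seen in 13 genes, of which 3 passed, and 9 of the 13 had a mean below 5 RPKM. An unadjusted p below 0.05 was reached by 2787 genes (14.7%), 1163 higher and 1624 lower in OX3. The 3 libraries of each genotype did not overlap for 3230 genes (17.1%). The largest adjusted p among the genes called was 0.0482 and the next gene had 0.0852, so the list ends at a gap in the p-values.

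AT3G29633, on chromosome 3 from 11452509 to 11453528 (minus strand, TAIR10.1), had the largest difference. It had 34.9, 51.8 and 28.1 RPKM in the OX3 libraries, against 0.504, 2.03 and 0.654 RPKM in the wild type. The lowest OX3 library stood far above the highest wild-type library, and the mean was 36.0-fold higher (log2 4.28 ± 0.23, SE, limma adjusted p = 5.35e-07). At normal phosphate it had 51.6, 49.6 and 47.9 RPKM in OX3, against 0.864, 0.608 and 0.888 RPKM in the wild type (log2 4.83, limma adjusted p = 1.05e-07). The difference was thus present at both phosphate levels, and its size did not differ detectably between them (interaction -0.55 ± 0.32, limma adjusted p = 0.742). The call held in all 13 alternative fits, with log2 differences of 4.04 to 5.33.

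AT1G15290, on chromosome 1 from 5256870 to 5265155 (minus strand, TAIR10.1), had 15.4, 11.003 and 16.3 RPKM in OX3, against 6.69, 6.07 and 6.20 RPKM in the wild type. OX3 was above the wild type in every library, by 2.26-fold in the mean (log2 1.04 ± 0.11, limma adjusted p = 0.00204). At normal phosphate the values were 22.8, 21.1 and 23.9 RPKM in OX3, against 8.64, 8.20 and 9.17 RPKM in the wild type (log2 1.29, limma adjusted p = 0.000149). The interaction was -0.24 ± 0.16 (limma adjusted p = 0.762). The call was lost in 1 of 13 alternative fits (highest limma adjusted p 0.0567).

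JAL41 (AT5G35940), on chromosome 5 from 14090574 to 14093007 (plus strand, TAIR10.1), belongs to the jacalin-related lectins, carbohydrate-binding proteins. It had 62.7, 56.7 and 64.5 RPKM in OX3 and 22.6, 30.5 and 23.4 RPKM in the wild type, groups far apart, with a 2.404-fold higher mean in OX3 (log2 1.24 ± 0.16, limma adjusted p = 0.00825). At normal phosphate JAL41 was much lower in both genotypes, with 6.42, 6.76 and 7.85 RPKM in OX3 and 2.70, 2.11 and 4.41 RPKM in the wild type (log2 1.01, limma adjusted p = 0.0106). The ratio between genotypes was 2.404 at low phosphate and 2.28 at normal phosphate, with an interaction of 0.23 ± 0.23 (limma adjusted p = 0.841). It passed in 8 of 13 alternative fits.

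**Figure D2:**
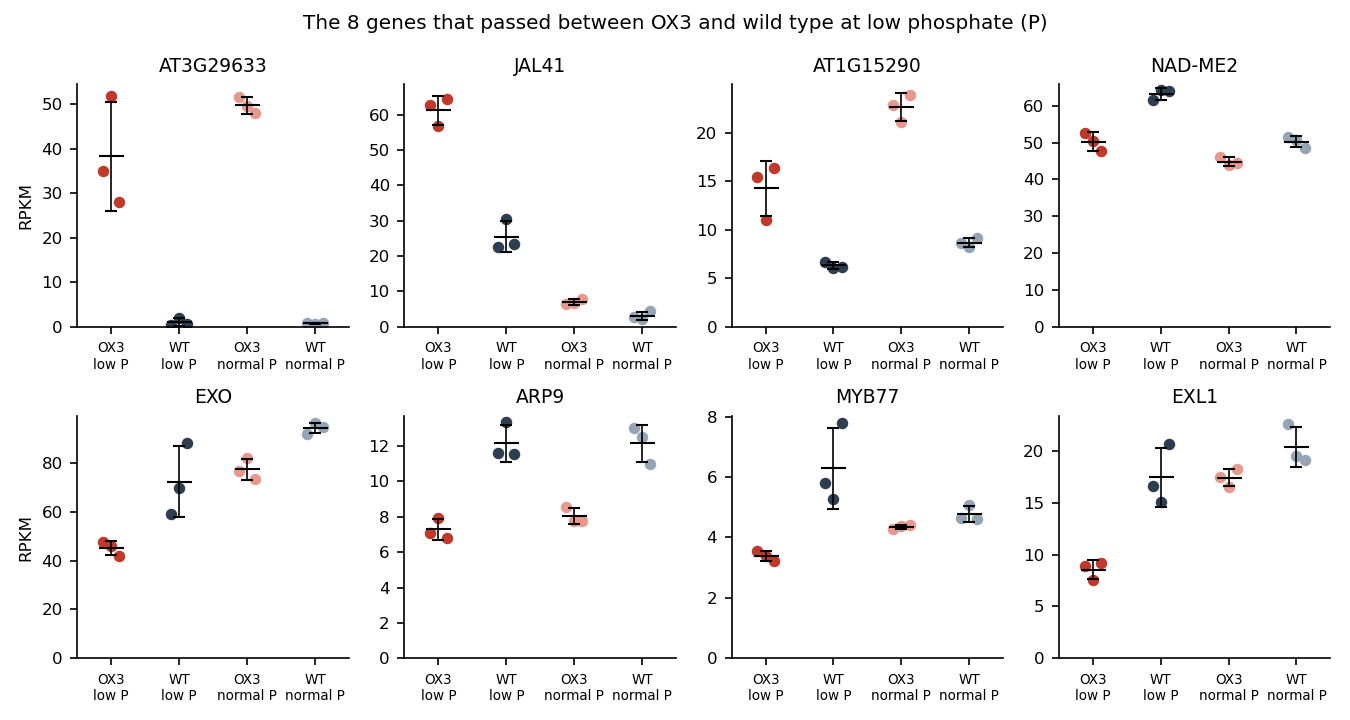
RPKM of the 8 genes that passed at low phosphate, in the 3 libraries (points) of OX3 and wild type (WT) at low and normal phosphate; bars are the mean and SD. The 8 genes were chosen by their low phosphate p-values, a choice that favours groups that lie apart. At low phosphate the OX3 and wild-type points do not overlap in any panel, as for 17.1% of all tested genes. AT3G29633, AT1G15290, JAL41 and ARP9 also passed at normal phosphate, where 3.1% of all genes passed.

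EXL1 (AT1G35140), on chromosome 1 from 12851983 to 12853235 (plus strand, TAIR10.1), is EXORDIUM-like 1, known in Arabidopsis for growth under carbon and energy limitation. It had 8.94, 7.54 and 9.19 RPKM in OX3, against 16.6, 15.1 and 20.6 RPKM in the wild type, and the groups did not overlap. EXL1 fell to 0.491 of the wild-type mean (log2 -0.94 ± 0.10, limma adjusted p = 0.00212). At normal phosphate it had 17.5, 16.5 and 18.25 RPKM in OX3 and 22.6, 19.5 and 19.1 RPKM in the wild type (log2 -0.21, limma adjusted p = 0.228). The difference between the phosphate levels was -0.73 ± 0.15, with an unadjusted p of 0.00022 in the fit across all genes that did not pass adjustment (limma adjusted p = 0.379). Like the other called genes, EXL1 was chosen by its low phosphate difference, which is part of this interaction, so the interaction value is not independent of the choice. EXL1 passed in 12 of 13 alternative fits.

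EXO (AT4G08950), on chromosome 4 from 5740219 to 5741591 (plus strand, TAIR10.1), is EXORDIUM, an extracellular protein linked to brassinosteroid-dependent cell expansion in Arabidopsis. Its 47.4, 45.8 and 41.9 RPKM in OX3 lay below the 59.1, 69.8 and 88.0 RPKM of the wild type, where the libraries were widely spread. The log2 difference was -0.65 ± 0.10 (limma adjusted p = 0.0482), the weakest of the calls, and it passed in 2 of 13 alternative fits (limma adjusted p 0.00392 to 0.388). At normal phosphate EXO had 76.7, 82.0 and 73.4 RPKM in OX3 and 91.9, 96.2 and 94.7 RPKM in the wild type (log2 -0.28, limma adjusted p = 0.122), and the interaction was -0.37 ± 0.15 (limma adjusted p = 0.669).

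MYB77 (AT3G50060), on chromosome 3 from 18557607 to 18559326 (minus strand, TAIR10.1), encodes an R2R3 MYB transcription factor linked to auxin responses in Arabidopsis roots. It had 3.55, 3.40 and 3.22 RPKM in OX3, against 5.80, 5.27 and 7.79 RPKM in the wild type, a low level at which the OX3 libraries were close together and all below the wild type. The log2 difference was -0.72 ± 0.11 (limma adjusted p = 0.0377), and it passed in 5 of 13 alternative fits. At normal phosphate it had 4.27, 4.39 and 4.40 RPKM in OX3 and 4.64, 5.08 and 4.61 RPKM in the wild type (log2 -0.11, limma adjusted p = 0.577), with an interaction of -0.61 ± 0.15 (limma adjusted p = 0.610).

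ARP9 (AT5G43500), on chromosome 5 from 17469490 to 17473619 (plus strand, TAIR10.1), encodes an actin-related protein. It had 7.10, 7.96 and 6.80 RPKM in OX3, against 11.6, 13.4 and 11.5 RPKM in the wild type (log2 -0.67 ± 0.08, limma adjusted p = 0.00761). At normal phosphate it had 8.55, 7.78 and 7.78 RPKM in OX3 and 13.01, 12.5 and 10.996 RPKM in the wild type (log2 -0.54, limma adjusted p = 0.0095), so ARP9 was lower in OX3 at both phosphate levels, with an interaction of -0.13 ± 0.12 (limma adjusted p = 0.836). Of its 50-base stretches, 3.0% occur elsewhere in the genome, against 0% for the other 7 genes. It passed in 9 of 13 alternative fits.

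NAD-ME2 (AT4G00570), on chromosome 4 from 242461 to 246804 (minus strand, TAIR10.1), encodes a subunit of the mitochondrial NAD-dependent malic enzyme, which turns malate into pyruvate. It had 52.7, 50.4 and 47.6 RPKM in OX3 and 61.5, 64.3 and 63.9 RPKM in the wild type, a small difference between tight groups (log2 -0.33 ± 0.05, limma adjusted p = 0.0438). At normal phosphate it had 46.2, 43.9 and 44.5 RPKM in OX3 and 51.5, 50.8 and 48.5 RPKM in the wild type (log2 -0.16, limma adjusted p = 0.0847), and the interaction was -0.17 ± 0.07 (limma adjusted p = 0.691). NAD-ME2 overlaps AT4G00560 by 37 bases, and the sources used here do not say whether reads were counted by strand. It passed in 4 of 13 alternative fits.

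Genes next to the 8 were examined as well. Within 10000 bases of them lay 22 tested genes, with 0 near EXL1, 0 near JAL41 and only 1 near AT3G29633. At low phosphate 0 of the 22 passed, against 0.0423% of all genes, and their log2 differences ran from -0.47 to 0.16. At normal phosphate 1 of the 22 passed, AT1G15280 beside AT1G15290, a share near the 3.1% of all genes that passed there.

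EXL1, EXO and MYB77 belong to a list of 11 genes, the EXORDIUM family with the MYB44 clade of transcription factors. The list was drawn up with earlier results of these data known, so its direction is not independent evidence. It had 0 members called higher and 3 called lower in OX3, against 0.0159% and 0.0264% of all tested genes. The median log2 difference was -0.29 against -0.01 over all tested genes. At an unadjusted limma p below 0.05, 7 members were lower, against 8.59% of all genes. Across the alternative fits the list median at low phosphate ran from -0.36 to -0.23. At both phosphate levels 8 of 11 members were below 0, and the median at normal phosphate was -0.185. There 1 was called higher and 1 lower, against 1.37% and 1.73% of all genes. At an unadjusted limma p below 0.05, 3 were lower and 2 higher at normal phosphate. In the interaction 0 of the 11 passed. Among the rest of the list, EXL5 had 7.85, 6.06 and 6.25 RPKM in OX3 and 8.98, 8.83 and 12.7 RPKM in the wild type, groups apart but not passing (log2 -0.52 ± 0.13, limma adjusted p = 0.172). MYB73, a regulator from the clade of MYB77, had 40.1, 35.1 and 37.7 RPKM in OX3 and 42.7, 48.8 and 57.5 RPKM in the wild type (log2 -0.38, limma adjusted p = 0.166), and passed without wild-type replicate 2 (log2 -0.48, limma adjusted p = 0.0235). MYB44 itself had 37.7, 38.3 and 44.0 RPKM in OX3 and 39.7, 37.4 and 37.8 RPKM in the wild type, overlapping groups. EXL5, MYB73 and MYB44 were chosen for mention after their values were seen.

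The 250 bases before the annotated gene starts of EXO, EXL1 and MYB77, from the RefSeq TAIR10.1 genome, are shown. These 3 genes are the members of the EXORDIUM list that were called lower at low phosphate. Capitals mark the letters TTGAC (W-box core) and CGCGT (CGCG core) on either strand; overlapping matches form 1 run. The G-box CACGTG was also searched and has no match in these 3.
EXO, chr4:5739969-5740218, plus strand: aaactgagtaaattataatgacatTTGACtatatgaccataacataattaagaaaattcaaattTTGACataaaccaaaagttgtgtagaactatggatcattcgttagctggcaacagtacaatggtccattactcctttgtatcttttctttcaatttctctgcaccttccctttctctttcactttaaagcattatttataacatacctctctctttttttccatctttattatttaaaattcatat
EXL1, chr1:12851733-12851982, plus strand: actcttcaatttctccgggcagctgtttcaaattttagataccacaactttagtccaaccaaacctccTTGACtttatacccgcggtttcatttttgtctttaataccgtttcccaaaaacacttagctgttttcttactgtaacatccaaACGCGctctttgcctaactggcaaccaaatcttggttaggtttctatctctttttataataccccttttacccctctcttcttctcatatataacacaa
MYB77, chr3:18559327-18559576, minus strand: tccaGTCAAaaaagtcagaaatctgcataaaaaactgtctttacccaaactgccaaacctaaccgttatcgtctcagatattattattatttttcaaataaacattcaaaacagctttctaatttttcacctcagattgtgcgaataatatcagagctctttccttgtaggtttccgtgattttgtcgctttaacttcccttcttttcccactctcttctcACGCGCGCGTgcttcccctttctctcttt

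TTGAC occurs in 45.1% of the 18857 promoters of the same length and CGCGT in 7.48%. TTGAC has 2 matches before EXO, 1 before EXL1 and 1 before MYB77. CGCGT has 1 match before EXL1, 2 before MYB77 and 0 before EXO. The letters GNATATNC, the binding site of PHR1 (P1BS), occur in 5.54% of promoters and in 0 of the 8 called genes. A match is a description of the letters and not a binding site.

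The touch and rapid stress list holds genes that respond within minutes to touch, wounding or elicitors, and 23 of its 26 members were tested. This list too was drawn up with earlier results of these data known, so its direction is not independent evidence. With limma 0 passed at low phosphate, while 19 of 23 were below 0, the median log2 difference was -0.27 against -0.01 over all tested genes, and 12 were lower and 1 higher at an unadjusted p below 0.05, which 8.59% of all genes reached downward. At normal phosphate 19 of 23 were likewise below 0, with a median of -0.15, and 8 were lower and 1 higher at an unadjusted p below 0.05. At low phosphate the median lay between -0.30 and -0.23 in every alternative fit of the low phosphate comparison. TCH2, a calmodulin-like calcium sensor, had 27.5, 27.6 and 28.3 RPKM in OX3, against 35.2, 33.6 and 34.2 RPKM in the wild type. Its groups were tight and apart, yet the difference did not pass (log2 -0.30 ± 0.05, limma adjusted p = 0.108). It passed without wild-type replicate 2 (limma adjusted p = 0.0423) and with a correction for GC content and gene length (0.0259).

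Further members of the touch list, chosen after their values were seen, were also apart without passing. TCH4, a xyloglucan endotransglucosylase that remodels cell walls, had 26.8, 23.4 and 25.1 RPKM in OX3 and 34.8, 34.3 and 52.7 RPKM in the wild type (log2 -0.65 ± 0.13, limma adjusted p = 0.137). The zinc finger repressor gene ZAT10 had 33.1, 30.6 and 27.5 RPKM in OX3 and 41.6, 38.6 and 46.7 RPKM in the wild type (log2 -0.46, limma adjusted p = 0.157). WRKY40, a defence regulator gene, had 7.64, 8.20 and 9.89 RPKM in OX3 and 13.7, 13.3 and 12.3 RPKM in the wild type (log2 -0.56, limma adjusted p = 0.235). ZAT12, a gene of oxidative stress, had 53.7, 53.6 and 50.9 RPKM in OX3 and 53.3, 52.3 and 48.1 RPKM in the wild type, so the list was not uniform. Without wild-type replicate 2, 3 members of the list passed, all lower in OX3, against 0.444% of all genes lower in that fit.

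**Figure D3:**
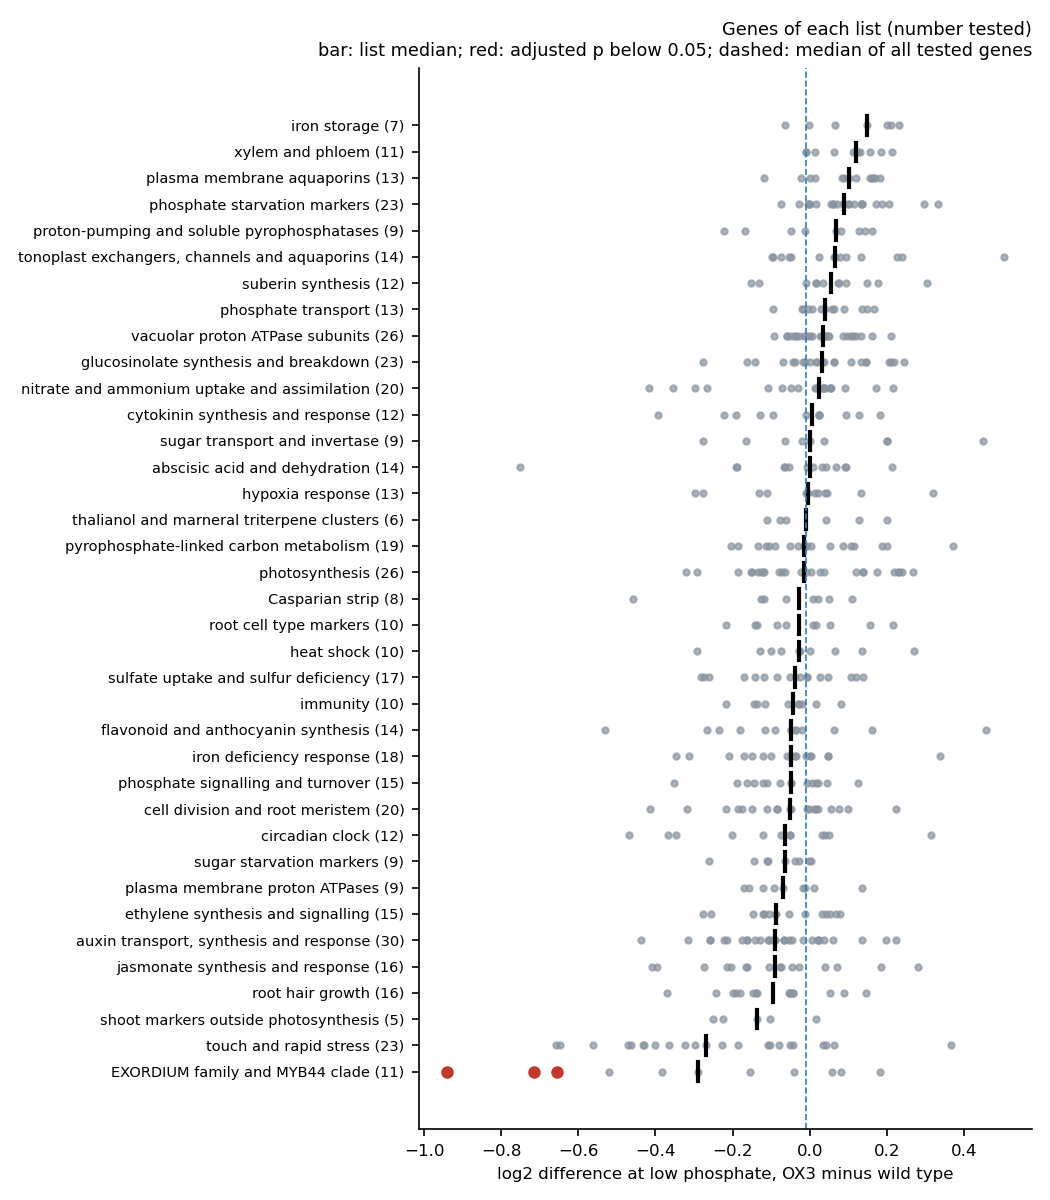
Log2 difference between OX3 and wild type at low phosphate (horizontal axis) for the tested members (points) of each gene list with at least 5 tested members, with the number tested in brackets; black bars are list medians, the dashed line is the median of all tested genes and red points passed. The EXORDIUM list at -0.29 and the touch list at -0.27 have the lowest medians, and the red points are EXL1, MYB77 and EXO.

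Of 38 gene lists, 37 had 0 members that passed at low phosphate, and the medians of 32 lay within 0.1 of 0. The 13 gene families likewise had 0 members that passed, and 0.0423% of all tested genes did. At an unadjusted p below 0.05, which 6.15% of all genes reached upward and 8.59% downward, the touch list reached 12 of 23 downward and the EXORDIUM list 7 of 11. All lists were drawn up with earlier results of these data known, so these shares are not independent evidence. Without wild-type replicate 2, which raised the share called to 1.04% of all genes, the AP2/ERF transcription factors had 1 member higher and 5 lower of 77. The EXORDIUM list then had 0 higher and 4 lower of 11, and the expansins and xyloglucan endotransglucosylases 2 higher and 2 lower of 47.

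The phosphate starvation markers follow the starvation programme in the 2 genotypes. Of 23 tested, 0 passed, and 1 was higher at an unadjusted p below 0.05, which 6.15% of all genes reached upward. Since 0.0423% of all genes passed, 0 of 23 does not show that the levels were the same. Their median log2 difference was 0.09 and 19 of 23 were above 0, against 47.4% of all genes. The median depended on single libraries, with 0.02 without wild-type replicate 4 and 0.18 without wild-type replicate 2. IPS1, the non-coding RNA that sequesters miR399, had 1455, 1451 and 1561 RPKM in OX3, against 1389, 1140 and 1042 RPKM in the wild type. Its groups were apart but the difference did not pass (log2 0.33 ± 0.11, limma adjusted p = 0.248). SPX1, a phosphate sensor gene, had 1143, 1162 and 1163 RPKM in OX3 and 1175, 973 and 943 RPKM in the wild type, where the highest wild-type library was replicate 2 (log2 0.17 ± 0.11, limma adjusted p = 0.480; 0.27 without that library). The same replicate was the highest of the wild type for SQD2, a sulfolipid synthase gene, with 389, 347 and 333 RPKM in OX3 and 411, 297 and 299 RPKM in the wild type. SPX1 and SQD2 were chosen after their values were seen.

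**Figure D4:**
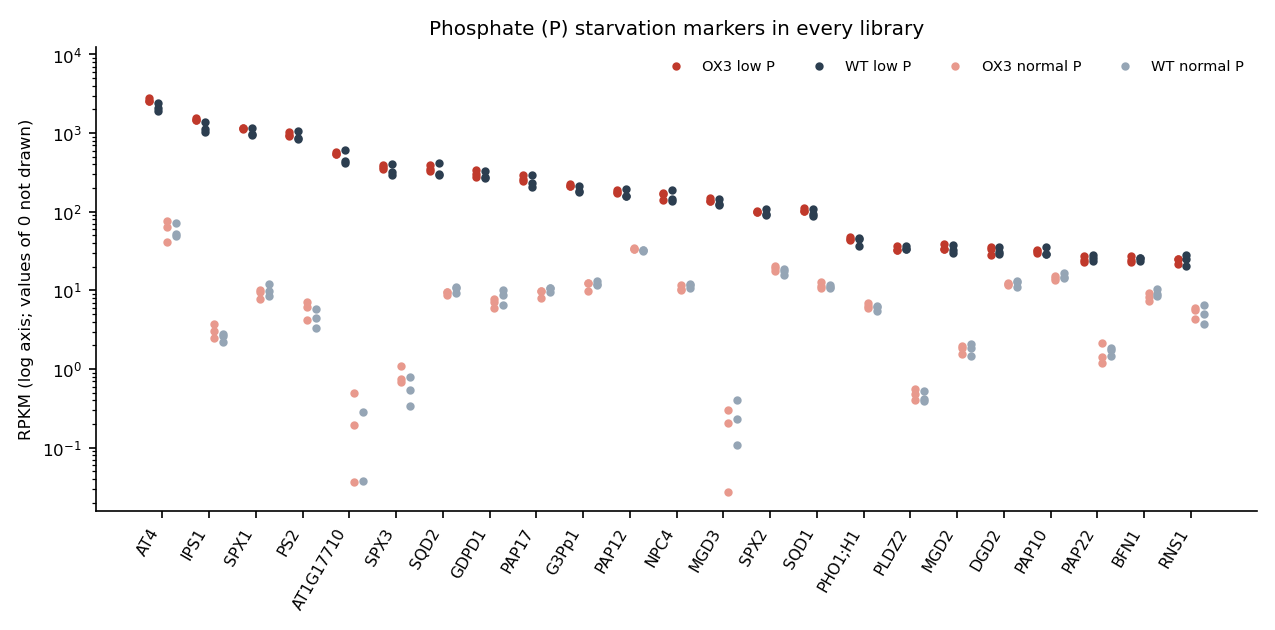
RPKM (vertical log axis) of the 23 tested phosphate starvation markers in each library of OX3 and wild type (WT) at low and normal phosphate, ordered by wild-type level at low phosphate. At each phosphate level the 2 genotypes lie close together, and 0 markers passed between them. Of all genes, 0.0423% passed at low and 3.1% at normal phosphate.

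The summed level of the markers was 9097 to 9382 RPKM in OX3 and 7274 to 9357 RPKM in the wild type. Phosphate transport genes had 0 of 13 passing with a median of 0.04, and phosphate signalling and turnover genes 0 of 15 with a median of -0.05. Since 0.0423% of all genes passed, these counts do not show that the levels were the same. Of the 15 signalling genes, 3 were lower and 0 higher at an unadjusted limma p below 0.05, against 8.59% and 6.15% of all genes. In the signalling list WRKY6, a repressor of the phosphate exporter gene PHO1, had 34.8, 35.1 and 32.4 RPKM in OX3 and 41.3, 41.3 and 49.2 RPKM in the wild type, groups apart but not passing (log2 -0.35 ± 0.08, limma adjusted p = 0.157). Without wild-type replicate 2 it passed (log2 -0.39, limma adjusted p = 0.0447).

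Among the genes nearest to the transgene's function, the 9 proton-pumping and soluble pyrophosphatases had 0 passing, against 0.0423% of all genes. AVP1, the vacuolar counterpart of GmVP2 in Arabidopsis, had 243, 247 and 228 RPKM in OX3 and 229.9, 244 and 251 RPKM in the wild type, overlapping groups. Its log2 difference of -0.01 had a 95% interval of -0.14 to 0.11, and its sign turned to positive in 4 alternative fits. VHP2;1 had 28.2, 26.4 and 22.8 RPKM in OX3 and 28.2, 29.0 and 29.9 RPKM in the wild type (log2 -0.17, 95% interval -0.32 to -0.02, limma adjusted p = 0.292). Its log2 difference was -0.08 without OX3 replicate 4 and -0.02 after correction for GC content and gene length. VHP2;2 had 4.21, 4.59 and 3.79 RPKM in OX3 and 4.49, 4.21 and 4.38 RPKM in the wild type (log2 -0.05, 95% interval -0.22 to 0.13, sign reversed in 2 alternative fits). Both VHP2 genes encode pyrophosphatases of the Golgi.

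PPA4, a soluble pyrophosphatase gene, had 162, 163 and 168 RPKM in OX3 and 162, 145 and 135 RPKM in the wild type (log2 0.16, limma adjusted p = 0.292). The 26 tested vacuolar ATPase subunits, which pump protons into the same compartment with ATP, had a median of 0.03. Of these 0 passed, against 0.0423% of all genes. PPCK1, the kinase of phosphoenolpyruvate carboxylase in the list of pyrophosphate-linked carbon metabolism, had 187, 184 and 196 RPKM in OX3 and 169, 143 and 128 RPKM in the wild type. Its groups were apart, but it did not pass (log2 0.37 ± 0.08, limma adjusted p = 0.157), except without wild-type replicate 2 (log2 0.48, limma adjusted p = 0.00824).

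In other lists the member with the smallest p did not pass either. The nitrate reductase gene NIA2 had 305.7, 289.98 and 271 RPKM in OX3 and 340.02, 350.4 and 376 RPKM in the wild type (log2 -0.30, limma adjusted p = 0.152). MYB12, a regulator of flavonol synthesis, had 12.3, 14.6 and 13.2 RPKM in OX3 and 11.2, 9.64 and 7.76 RPKM in the wild type (log2 0.46, limma adjusted p = 0.166). PRR5 of the circadian clock had 17.39, 17.58 and 16.1 RPKM in OX3 and 20.7, 21.4 and 24.8 RPKM in the wild type (log2 -0.37, limma adjusted p = 0.157). NIA2, MYB12 and PRR5 all had groups that did not overlap, as did 17.1% of all genes. All passed without wild-type replicate 2, with limma adjusted p of 0.042, 0.0273 and 0.0463, where 1.04% of all genes passed. These genes were chosen for mention with earlier results of these data known. Other lists, such as cytokinin synthesis and response and sugar transport and invertase, had 0 members passing in that fit. RD29A, a dehydration marker, had 10.8, 9.33 and 6.98 RPKM in OX3 and 19.8, 12.6 and 15.3 RPKM in the wild type (log2 -0.75 ± 0.18, limma adjusted p = 0.169).

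The genotype comparison was also made at normal phosphate, between the other 6 libraries. The fit over all 12 libraries gave both comparisons a shared estimate of the spread, so their p-values are not independent. There 587 genes differed (3.1%), 259 higher (1.37%) and 328 lower (1.73%) in OX3. That count depended on single libraries and on the test, with 8 to 1059 calls when 1 library was left out and 401 higher and 723 lower calls with voom on recovered reads. With median-ratio size factors the split was 206 higher and 386 lower. Of the 8 genes called at low phosphate, 4 were also called at normal phosphate (4 of 8 and 4 of 587), namely AT3G29633, AT1G15290, JAL41 and ARP9.

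The sign was the same at both phosphate levels for 66.6% of all tested genes. It was also the same for all 8 genes called at low phosphate. Of the 587 genes called at normal phosphate, 526 (89.6%) had the same sign at low phosphate. Their differences were smaller at low phosphate. The genes higher in OX3 at normal phosphate had a median log2 difference of 0.11 at low and 0.34 at normal phosphate, and the lower ones -0.20 and -0.40; the normal phosphate medians come from the values that chose these genes. The genotype by phosphate interaction, which tests the difference itself, had 0 genes passing with limma and 0 with voom, while 1351 genes had an unadjusted p below 0.05 (7.14%), and the smallest limma adjusted p was 0.379. The counts of calls at the phosphate levels are not a test of that difference.

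**Figure D5:**
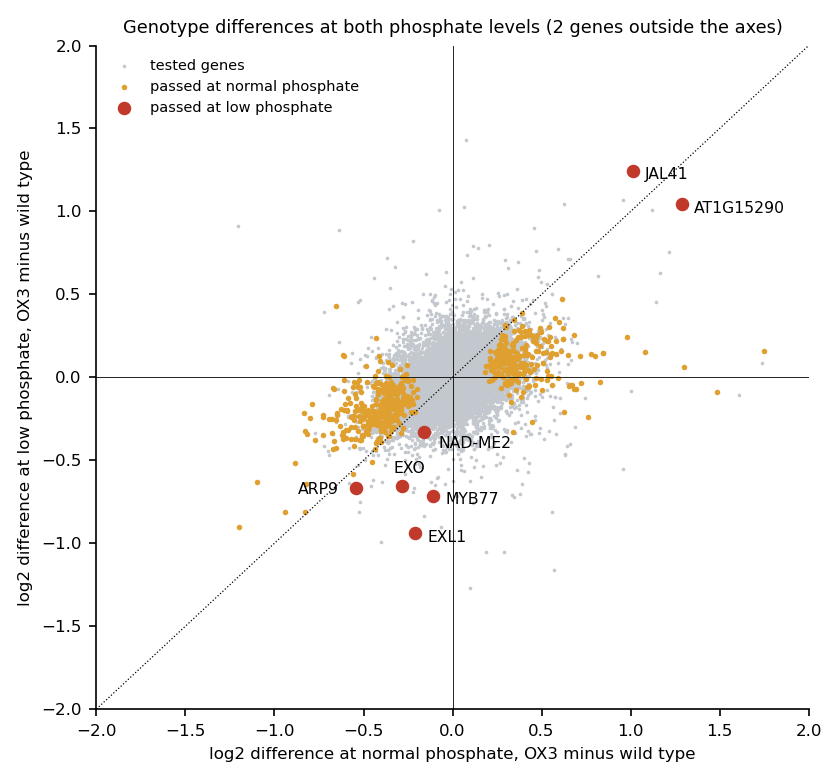
Log2 difference between OX3 and wild type at low phosphate (vertical axis) against that at normal phosphate (horizontal axis) for each tested gene; orange points passed at normal and red at low phosphate, and 2 genes lie outside the axes. JAL41, AT1G15290 and ARP9 lie near the diagonal, while EXL1 lies at -0.94 and MYB77 at -0.72 at low phosphate, against -0.21 and -0.11 at normal phosphate. The red genes were chosen by their low phosphate values.

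Photosynthesis genes are a list whose counts differed between the levels. At low phosphate 0 of 26 passed, against 0.0423% of all genes, with a median of -0.02. At normal phosphate 11 were higher in OX3, against 1.37% of all genes, 0 were lower and the median was 0.33. Sums there were 1087 to 1159 RPKM in OX3 and 768 to 880 RPKM in the wild type. In the interaction 0 of the 26 passed, 25 were below 0 and the median was -0.35. There 17 were below 0 at an unadjusted limma p below 0.05, which 7.14% of all genes reached in either direction. GAPA, a chloroplast glyceraldehyde phosphate dehydrogenase gene, had 12.01, 12.03 and 11.8 RPKM in OX3 and 10.5, 9.64 and 9.74 RPKM in the wild type at low phosphate (log2 0.24, limma adjusted p = 0.220). Cytosolic ribosomal protein genes, 236 of which were tested, had a median of 0.05 at low and 0.22 at normal phosphate. Of these 0 and 1 passed, against 0.0423% and 3.1% of all genes. At normal phosphate 222 were above 0. There 147 were higher and 2 lower at an unadjusted limma p below 0.05, which 4559 of all 18910 genes reached in either direction. At low phosphate 193 were above 0, against 47.4% of all genes, and 7 were higher and 2 lower at that limit. In the interaction 0 passed and 221 were below 0.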

How the data were processed

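Root RNA was sequenced in 12 libraries, 3 for each of OX3 and wild type at low and normal phosphate. The authors deposited RPKM values for 25941 genes. The submitters' processing notes list HTSeq 0.6.0 and TAIR10 and give no role for either; strand and read layout are not stated. Whole reads were recovered from the deposited RPKM (99.42% to 99.46% of nonzero values within 0.01 of a read), with library totals of 17670350 to 20418541. A floor of 3 reads in 1 kb is 0.147 to 0.170 RPKM and covers counting error only.

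Values were transformed to log2(RPKM + 1) and fitted with limma 3.58.1 (R 4.3.3; trended prior variance) over all 12 libraries, keeping genes that averaged 1 RPKM or more; groups were compared by contrasts. Calls used two-sided p-values below 0.05 after Benjamini-Hochberg adjustment over all 18910 genes. Log2 differences are OX3 minus wild type on the log2(RPKM + 1) scale, which understates changes of low genes; ± is the standard error. Alternatives were a replicate block, a pseudocount of 0.1, no filter, median-ratio size factors, the compared groups alone, voom on recovered reads, a GC content and length correction, and leaving out each library.

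Named genes were the 12 highest and 12 lowest non-overlapping called genes, up to 3 called members a list or else the member with the smallest p, the 10 most abundant called genes, the 6 with the smallest adjusted p among interaction calls, and AVP1, VHP2;1 and VHP2;2. Members and lists were chosen with earlier results of these data known. The fitting was tested on simulated data. Of 25688 genes matched to TAIR10.1, 25683 had the same start and end. No list was given a set test.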

Additional observations from a re-analysis of the deposited data

How the results depend on the processing

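The 8 calls at low phosphate became 5 (3 higher, 2 lower) under median-ratio scaling and 2 when the compared groups were fitted alone. They numbered 8 without the filter, 7 at a pseudocount of 0.1, 8 by voom on recovered reads, 7 after correction for GC content and length, and 3 to 196 when 1 library was left out. Wild-type replicate 2 gave the 196, among which all 8 remained. With the replicate block there were 8 calls at low phosphate, 3 of them shared (EXL1, AT3G29633 and AT1G15290), and 225 at normal phosphate. Replicate numbers did not pair the samples: same-numbered libraries had deviations correlated at 0.04 and -0.08 at low phosphate and -0.14, -0.06 and 0.04 at normal phosphate, and not every library correlated best with its own number. The 587 calls at normal phosphate became 152 without the filter, 1087 with the compared groups alone, 1124 by voom, 302 after correction for GC content and length, and 8 to 1059 when 1 library was left out. The interaction had 0 calls in every alternative except 1 (AT5G51440, log2 0.87, limma adjusted p = 0.0162) without OX3 replicate 4 at low phosphate, so its range was 0 to 1.

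None of the 8 called genes reversed in any of 13 alternatives; across them 65 values kept the call and 39 lost it. Signs reversed for AVP1 (0.0066 with size factors, 0.10 corrected for GC content and length, 0.020 without OX3 replicate 4 and 0.015 without wild-type replicate 4; leave-one-out range -0.048 to 0.020), for VHP2;2 (0.052 corrected for GC content and length and 0.0099 without OX3 replicate 4; leave-one-out range -0.10 to 0.0099), and for SESA4, a seed storage gene (0.13 without OX3 replicate 2 and 0.015 without wild-type replicate 3; leave-one-out range -0.24 to 0.13), each far from passing. RD29A passed with the replicate block (log2 -1.01, limma adjusted p = 0.0311). Without the filter, AT4G09575, AT4G00155 and AT5G07895 were called, each below 1 RPKM in every library. The causes were not tested. With 3 libraries a group the median standard error of a log2 difference was 0.09, which limits what can pass.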
